A study of Mus musculus with 2 samples.

Results

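Krt6a, Krt6b, Krt16 and Krt17 are the keratin genes best known from wounded and stressed epidermis. They were chosen by name, as 4 of 31053 genes in the deposited matrix, and their RNA was followed in 6188 kept cells of mouse cornea. Both libraries hold epithelial cells peeled from corneas of CycB1-GFP mice, whose green fluorescent protein reports cyclin B1 and so marks cycling cells, and only live GFP-positive cells were collected. The labels give 1 group with 2 replicates and name no wound, treatment, age, strain or sex. Cells without the reporter signal were not analysed here, so every statement concerns cells that passed this sort.

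Keratins are the intermediate filament proteins of epithelial cells, and a filament pairs a type II keratin with a type I keratin. Krt6a and Krt6b encode type II proteins, and Krt16 and Krt17 encode type I proteins that pair with them. In skin they are low between the hair follicles at rest and are switched on in keratinocytes around a wound, where they accompany migration, thickening and immune signalling. Krt5 and Krt14 form the standing filament pair of basal cells, Krt12 is the type I keratin that defines corneal epithelium, and Krt15 marks basal cells of the limbus, the border zone of the cornea.

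All 4 genes lie on the minus strand of GRCm38 in the GENCODE M21 annotation. Krt6b (chr15:101676023-101680287, 9 exons) and Krt6a (chr15:101689910-101694307, 9 exons) are neighbours in the type II cluster. Krt16 (chr11:100246091-100248902, 8 exons) and Krt17 (chr11:100256217-100261029, 8 exons) are neighbours in the type I cluster. The coding sequences of Krt6a and Krt6b were 97.6% identical and those of Krt16 and Krt17 70.9%, so whether 3' reads can separate the pairs bears on every count below. The end of the coding sequence, with the stop codon, is shown because it is the coding part nearest to the 3' end. The lines give the last 90 columns of the alignment of each pair's whole coding sequences, with bases that differ from the neighbour, or face a gap in it, in capitals.
Krt6a: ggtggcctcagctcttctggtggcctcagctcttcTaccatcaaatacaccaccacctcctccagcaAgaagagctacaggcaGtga
Krt6b: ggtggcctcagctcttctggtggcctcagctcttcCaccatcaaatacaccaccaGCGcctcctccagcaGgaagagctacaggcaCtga
Krt16: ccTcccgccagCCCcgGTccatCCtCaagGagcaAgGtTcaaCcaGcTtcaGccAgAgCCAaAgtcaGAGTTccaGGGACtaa
Krt17: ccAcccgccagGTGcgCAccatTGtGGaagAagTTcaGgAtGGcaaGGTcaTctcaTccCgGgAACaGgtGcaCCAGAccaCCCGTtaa
In this stretch Krt6a and Krt6b differed in 6 of 90 aligned columns, 3 of them gaps, and Krt16 and Krt17 in 40 of 90, 8 of them gaps. Over the last 500 bases of the transcripts, where 3' libraries take most of their reads, identity fell to 68.3% between Krt6a and Krt6b. None of the 451 windows of 50 bases in that stretch of Krt6a or of Krt6b occurred in the other 54 keratin genes searched. The same held for all but 6 windows of Krt16 (1.33%) and 43 of Krt17 (9.53%), and the shared windows were those of Krt14 and of each other.

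Library 1 held 3187 kept cells with a median of 5571 UMIs (unique molecular identifiers, each a captured RNA molecule), and library 2 held 3001 cells with a median of 5886. Their median mitochondrial share was 2.73% and 3.58%. The numbers name the barcode suffix and are not tied to the labelled replicates. The libraries are 1 sample each, so they are shown side by side without a test, and the intervals given for them cover counting error only. Levels are in CPM, the UMIs of a gene in every 1000000 UMIs of the cells summed. All 6 corneal markers were found (Krt12 at 11115 and 12597 CPM). Of 6 conjunctival markers 5 were found, summing to 364 and 778 CPM with Muc5ac at 0, and immune markers summed to 14.2 and 41.4 CPM. Limbal markers summed to 2997 and 4572 CPM (5 of 5 found) and those of eyelid skin and hair follicle to 20.6 and 18.6 CPM with Krt25 at 0. Keratocyte, melanocyte and endothelial markers each summed to at most 5.79 CPM. Cells were ordered by Krt12/(Krt12+Krt15), the share of Krt12 among the UMIs of both genes, for the 6072 cells with at least 5 such UMIs. The share is a range and not a cell type. It placed 663 and 959 cells under 0.4, 161 and 164 cells from 0.4 to 0.8, and 2304 and 1821 cells above 0.8, with between 16 and 50 cells of each class and library within 0.05 of a bound. The conjunctival markers were higher where the share was low, at 1220 and 2337 CPM under 0.4 against 115 and 115 CPM above 0.8.

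Krt6a, the more abundant type II member, reached 1596 CPM in library 1 (29961 UMIs) and 905 CPM in library 2 (16111 UMIs). At an equal depth of 1900 UMIs per cell it was found in 50.2% of cells in library 1 (95% exact binomial interval 48.3 to 52.0%) and 35.9% in library 2 (34.1 to 37.8%); without thinning the shares were 62.4% and 47.7%. The difference between the libraries changed along the Krt12 share. Summed over the class under 0.4, Krt6a stood at 1285 and 1303 CPM. Within that class Krt6a was lower in library 1 at a share under 0.1, at 1129 against 1321 CPM. It was higher in library 1 from 0.1 to 0.2 (1668 against 1305 CPM), 0.2 to 0.3 (1431 against 941 CPM) and 0.3 to 0.4 (1487 against 1231 CPM). Between 0.4 and 0.8 it stood at 1770 and 1049 CPM, and above 0.8 at 1670 and 724 CPM. Krt6a was thus higher above 0.8 than under 0.4 in library 1, where the middle class was highest, and lower above 0.8 than under 0.4 in library 2.

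Krt6b, its near copy in the coding part, was lower, at 185 CPM (3474 UMIs) and 226 CPM (4024 UMIs). At equal depth 8.88% of cells had it in library 1 (7.86 to 9.97%) and 8.56% in library 2 (7.53 to 9.68%), and without thinning 15.4% and 13.6%. Its level under 0.4 was 206 and 281 CPM, between 0.4 and 0.8 it was 282 and 240 CPM, and above 0.8 it was 173 and 202 CPM. Over all cells Krt6b differed least of the 4 genes between the libraries.

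Krt16, the type I partner most used as a stress marker in skin, gave the widest difference between the libraries, at 334 CPM (6279 UMIs) against 90.4 CPM (1609 UMIs). At equal depth 12.3% of cells had it in library 1 (11.1 to 13.6%) and 4.87% in library 2 (4.09 to 5.76%), and without thinning 19.1% and 8.16%. In both libraries its level was highest in the thin middle class. It stood at 254, 496 and 344 CPM in library 1 and at 64.6, 224 and 89.2 CPM in library 2, from the lowest class to the highest. The middle class of library 2 rested on 12 thinned cells with a Krt16 UMI, with 110 UMIs in the highest single cell. Leaving out the cells with the highest doublet scores kept 141 of 161 and 125 of 164 cells of the middle class. It kept 655 of 663 and 949 of 959 in the lowest class, and 2236 of 2304 and 1780 of 1821 in the highest. The part of doublets in the Krt16 or Krt6a level of the middle class was not tested.

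Krt17, the other type I member, followed the Krt12 share most steeply. Under 0.4 it stood at 2381 and 1894 CPM, between 0.4 and 0.8 at 1758 and 988 CPM, and above 0.8 at 364 and 95.0 CPM. At equal depth under 0.4 the share of cells with it was 77.6% in library 1 (74.2 to 80.8%) and 77.5% in library 2 (74.6 to 80.2%). Above 0.8 it was found in 20.3% (18.6 to 22.1%) and 8.98% (7.64 to 10.5%). The intervals of the lowest and the highest class were far apart in each library. In cells with a low Krt12 share Krt17 was the most abundant of the 4 genes by UMIs, and above 0.8 it was below Krt6a in both libraries.

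**Figure D1:**
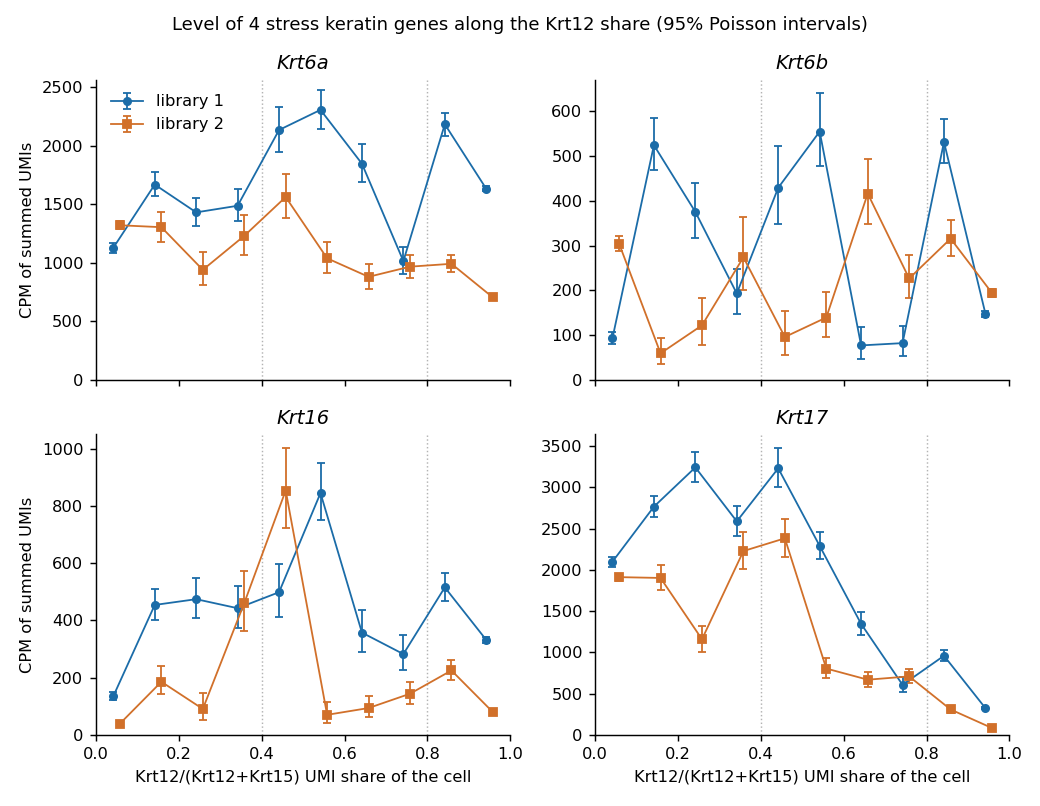
Level of each gene (CPM of the summed UMIs, linear axis from 0) in 10 bins of the Krt12/(Krt12+Krt15) UMI share, with 95% Poisson intervals; circles are library 1, squares library 2, and dotted lines mark the class bounds. Krt17 ends low in both libraries, at 323 and 81.6 CPM in the last bin, while Krt6b moves up and down between bins that hold as few as 27 cells.

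**Figure D2:**
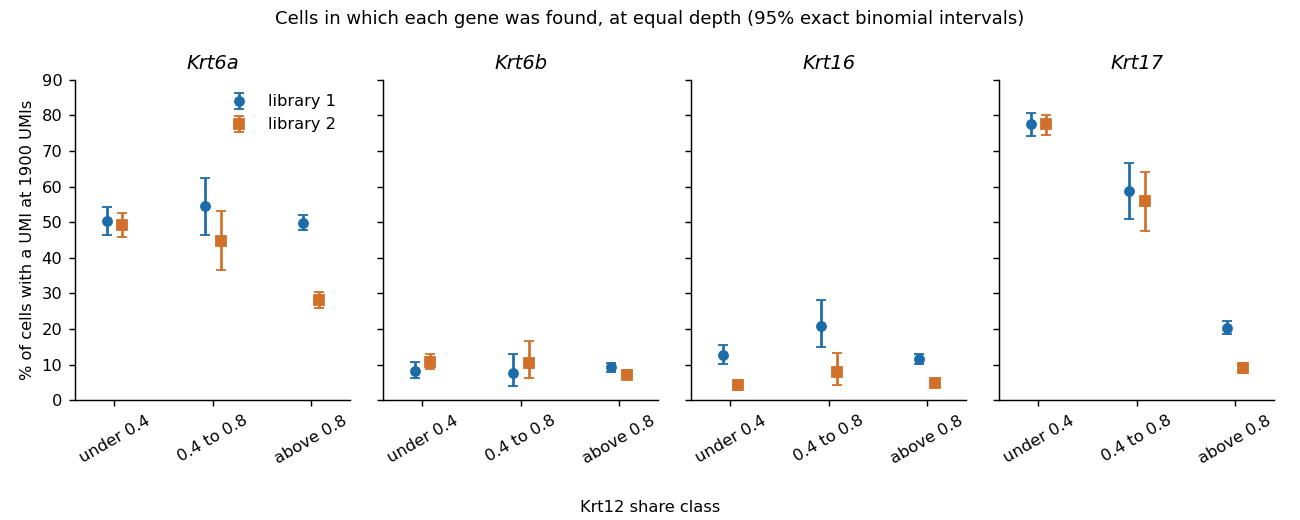
Percent of cells with at least 1 UMI of each gene after every cell was thinned to 1900 UMIs, by Krt12 share class and library, with 95% exact binomial intervals. Krt17 falls across the classes from 77.6% to 20.3% in library 1 and from 77.5% to 8.98% in library 2, and Krt6a differs between the libraries above 0.8 (49.9% and 28.1%).

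The balance of type II and type I RNA among the 4 genes followed from these levels. Krt5, Krt14, Krt12 and Krt15 are not counted in it, so it is not the balance of all keratin RNA. Over all cells the UMIs of Krt6a and Krt6b together were 1.49 and 1.50 times those of Krt16 and Krt17 together. Under 0.4 the ratio was 0.566 in library 1 and 0.809 in library 2, so type I RNA of the 4 genes was in excess there. Above 0.8 it was 2.60 and 5.03, an excess of type II RNA among the 4 genes. Krt16 made up 9.63% and 3.30% of the Krt16 and Krt17 UMIs under 0.4 and 48.6% and 48.4% above 0.8. The 4 genes took 16.9% and 13.7% of the UMIs of 8 keratin genes (with Krt5, Krt14, Krt12 and Krt15) under 0.4, and 8.74% and 3.81% above 0.8.

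Most of the Krt16 and Krt6b RNA came from few cells. The 5% of cells with most Krt16 UMIs held 83.0% and 94.1% of them, and for Krt6b the figures were 85.9% and 88.9%. Krt6a and Krt17 were spread wider, at 40.0% and 48.0% for Krt6a and 54.3% and 47.6% for Krt17. Single cells reached 212 and 165 UMIs of Krt6a, 137 and 101 of Krt6b, 189 and 122 of Krt16, and 271 and 145 of Krt17. At least 10 UMIs were counted in 806 and 464 cells for Krt6a, in 98 and 111 for Krt6b, in 151 and 42 for Krt16, and in 419 and 359 for Krt17. Cells this rich in Krt17 made up 34.5% and 31.3% of those under 0.4 but 5.90% and 1.32% of those above 0.8. The level of Krt6b or Krt16 in a class thus rests on few cells. Free RNA was gauged in 17 immune cells (median 2341 UMIs), which should lack these keratins. Krt6a had a UMI in 1 of them and Krt17 in 2, and Krt6b and Krt16 in 0 of 17, which allows a share of up to 17.6%. Among the other cells (median 5757 UMIs) the shares were 55.4% for Krt6a, 14.5% for Krt6b, 13.8% for Krt16 and 45.1% for Krt17.

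Whether the members differ between the ends of the Krt12 share was tested on summed UMIs per library and class. Of 11138 genes tested, 32.5% (15.6% higher, 16.9% lower) passed an adjusted p of 0.05 (edgeR quasi-likelihood, 6 sums, library as a block, 2 residual degrees of freedom), and 0 of the 4 members did. Krt17 was lower above 0.8 by a log2 fold change of -3.44 (SE 0.61, adjusted p = 0.0686), with -2.67 in library 1 and -4.31 in library 2. Krt6b gave -0.35 (SE 0.13, adjusted p = 0.0648), Krt16 0.47 (SE 0.25, adjusted p = 0.288) and Krt6a -0.22 (SE 0.43, adjusted p = 0.788). The sign for Krt6a was opposite in the libraries, 0.42 and -0.84. Krt17 passed with DESeq2 on the same sums (-3.46, adjusted p = 3.52e-08). Krt6b passed in 4 of the alternatives run, and Krt16 in 2. For these 3 genes the side of the threshold thus depended on the model, or on the cells and counts used.

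The standing keratins and the other lists gave the setting for this. Krt5 rose by 0.37 (SE 0.06, adjusted p = 7.5e-06), while Krt14 gave -0.71 (SE 0.31, adjusted p = 0.263). Of 11 other keratin genes tested 10 fell and 0 rose, with a median of -3.66 beside 0.0055 for all genes, among them Krt7 (-6.03), Krt4 (-5.91) and Krt19 (-4.41), which are also conjunctival markers. Of 26 keratinocyte activation and wound genes 3 rose and 12 fell (median -0.58). Lcn2, an iron-scavenging defence protein, fell by 3.81, the cornified envelope gene Sprr1a fell by 1.31 and the EGF receptor ligand Areg fell by 1.09. AP-1 and immediate early genes went the other way, with 6 of 12 higher and 0 lower (median 0.76), led by Fos (1.72), Fosb (1.43) and Ier2 (1.18). Among 22 regulators of stress keratin genes 6 rose and 3 fell, with Klf4 at 2.03 (adjusted p = 0.0287), Klf5 at -1.11 and Cebpd at -1.82. Krt17 and the conjunctival markers were both high at a low Krt12 share, and the part of those cells in the Krt17 level was not tested.

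Whether the 4 RNAs were found in the same cells was examined at 1900 UMIs per cell. The number of cells with both genes was divided by the number that the shares of each gene within library and class would give if they were independent. The intervals are Poisson intervals on the observed count. Krt6a and Krt6b shared 241 cells in library 1 against 128 expected, a ratio of 1.88 (1.65 to 2.14), and 212 against 87.6 in library 2, a ratio of 2.42 (2.11 to 2.77). Nearly every cell with Krt6b had Krt6a too. Krt6a was found in 94.5% and 92.2% of cells with Krt6b, and in 45.9% and 30.8% of cells without it. The reverse was not so, because Krt6b was found in 16.8% and 22.0% of cells with Krt6a.

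Of the pairs across filament types, Krt6b and Krt16 gave the highest ratio of the members in both libraries, 4.40 (3.70 to 5.20) and 3.51 (2.50 to 4.80). Krt6a and Krt16 gave 1.76 (1.57 to 1.96) and 2.35 (1.93 to 2.84), and Krt6a was found in 88.7% and 83.8% of cells with Krt16. Krt16 and Krt17 gave 1.85 (1.63 to 2.10) and 1.74 (1.36 to 2.18). Krt6a and Krt17 gave 1.31 (1.21 to 1.41) and 1.16 (1.05 to 1.26). Krt6b and Krt17 differed between the libraries, at 1.71 (1.44 to 2.00) in library 1 and 1.01 (0.82 to 1.24) in library 2. A gene found in many cells can only reach low ratios, so they do not rank pairs of unequal abundance. Spearman rank correlations of thinned counts, without regard to class, were 0.42 and 0.17 for Krt6b and Krt16. They were 0.41 and 0.45 for Krt6a and Krt6b, and 0.43 and 0.27 for Krt6a and Krt16. With Krt17 they were 0.31 and 0.29 for Krt6a, 0.30 and 0.12 for Krt16, and 0.17 and 0.06 for Krt6b.

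The class of the cell mattered for Krt17. Above 0.8 Krt16 and Krt17 gave 2.88 (2.43 to 3.40) and 4.12 (2.78 to 5.89), but under 0.4, where most cells had Krt17, 1.21 (0.95 to 1.51) and 1.19 (0.82 to 1.66). For Krt6a and Krt17 the ratios were 1.60 and 1.69 above 0.8 and 1.09 and 1.08 under 0.4. A gene found in most cells leaves little room for a ratio above 1, which also holds for the standing keratins. With Krt5, Krt12 and Krt15 all ratios of the members lay between 0.98 and 1.06, and with Krt14 between 0.82 (Krt6b in library 2) and 1.03. Krt13, a keratin of stratified mucosa and a conjunctival marker, gave 3.70 and 3.63 with Krt6b and 1.62 and 1.73 with Krt6a, while Krt4 and Krt13, a known filament pair, gave 1.89 and 1.86.

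**Figure D3:**
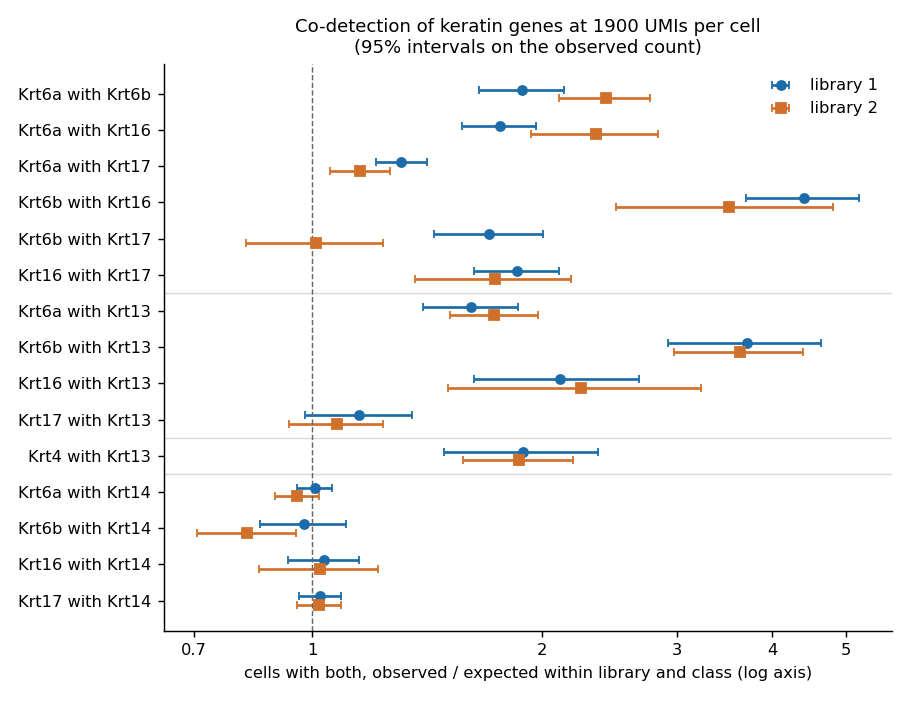
Cells holding both genes of a pair, as observed over expected within library and Krt12 share class (log axis), at 1900 UMIs per cell, with 95% intervals on the observed count. Krt6b with Krt16 lies farthest right (4.40 and 3.51), Krt6b with Krt17 sits at 1 in library 2, and pairs with Krt14 lie near 1 except Krt6b in library 2 (0.82).

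Over all combinations, none of the 4 RNAs was found in 1057 of 2884 thinned cells of library 1 and 1254 of 2688 of library 2. Krt6a alone was found in 612 and 328 cells and Krt17 alone in 327 and 430. The pair Krt6a and Krt17 without the others was found in 415 and 354 cells. Krt16 without any other member was found in 19 and 12 cells and Krt6b alone in 12 and 15. All 4 were found in 108 and 28 cells. Krt6a was thus found in most cells with Krt6b or Krt16. Some cells rich in Krt6a had no Krt6b UMI: of 319 and 153 cells with at least 30 Krt6a UMIs, 101 (31.7%) and 19 (12.4%) had 0 Krt6b UMIs, and 84 and 74 had at least 10. Among cells with at least 10 Krt6b UMIs, Krt6b exceeded Krt6a in 4 of 98 in library 1 and 33 of 111 in library 2.

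What else the cells with each member expressed was tested by comparing cells with and without a thinned UMI of it. The cells were matched in number within library, class and quintile of total UMIs, and summed into 4 sums with library as a block (edgeR quasi-likelihood, 1 residual degree of freedom). The p-values rest on a spread borrowed across genes and on 2 libraries, and the 4 comparisons share many cells, so their overlap is no separate evidence. Krt12 and Krt15 set the classes used for matching, so their values in these comparisons cover only differences left within the broad classes.

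Cells with Krt6b (255 and 230, with as many matched cells without it) stood apart in more genes than those of any other member. Of 9515 genes, 20.5% passed, 1168 higher (12.3%) and 780 lower (8.2%), beside 2 of 3 other members higher. Krt6a stood at 5946 against 1497 CPM in library 1 and 4106 against 855 CPM in library 2, a log2 fold change of 2.12 (SE 0.08, adjusted p = 1.56e-139). Krt16 stood at 2187 against 185 CPM and 459 against 75.1 CPM (3.18, SE 0.12, adjusted p = 3.44e-29). In both libraries the cells with Krt6b held several times more of each. Krt17 gave 1.21 (adjusted p = 0.483), with 1.73 in library 1 and 0.69 in library 2, and passed in 5 of the alternatives run. Without the library term 64 genes were higher and 2 lower, and neither Krt6a (adjusted p = 0.0599) nor Krt16 (adjusted p = 0.359) was called by edgeR.

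Psca, a membrane-anchored antigen of mucosal epithelia, had 200 UMIs in cells with Krt6b against 0 without in library 1, at least 67.2-fold higher at a floor of 3 UMIs in that library, and 1498 against 2 in library 2, a ratio of 766 (counting interval 212 to 6328). Nccrp1 had 141 against 0 UMIs, at least 47.3-fold higher, and 331 against 1, a ratio of 338 (60.3 to 13404). Ifit1bl1, of an interferon-induced family, had 26 against 0 UMIs, at least 8.73-fold higher, and 277 against 11, a ratio of 25.7 (14.2 to 52.2). The matched cells without Krt6b thus held at most 11 UMIs of any of the 3 in a library. Asprv1, a protease of the upper epidermis, rose by 6.25 (SE 0.17) from 4.61 to 171 CPM and from 15.3 to 1414 CPM, and the membrane mucin Muc4 by 5.14 (SE 0.19). Igfbp7 (-2.02), Arl4c (-1.97) and the Notch ligand Jag2 (-1.74) led the genes that were lower.

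By list, 9 of 12 surface differentiation genes were higher with Krt6b and 0 lower (median 1.70 beside -0.0092 for all genes), among them Dsg1a (2.29) and the tight junction gene Cldn4 (2.06). Of 14 desmosome and keratin anchor genes 10 were higher and 1 lower. The envelope linkers Evpl (1.67) and Ppl (1.59) and the cadherin Dsc2 (1.52) rose, and Dst, which anchors keratin to the basement membrane, fell by 0.86. Of 23 activation and wound genes 13 were higher and 2 lower, led by Sprr1a (2.73), Areg (2.59) and Stfa1 (1.56), with Lamb3, a chain of basement membrane laminin, at -0.73. Of 15 NRF2 targets, genes of the oxidant response, 7 were higher and 2 lower, with Gsta4 at 1.80 and Gclm at -0.92. Of 19 regulators 5 were higher, Klf5 (0.59), Stat3 (0.55) and Klf4 (0.48) among them, and 2 lower, Trp63 (-0.49), the basal cell regulator, and Keap1 (-0.45). Of 12 AP-1 genes Fosl2 (0.66) and Junb (0.28) were higher.

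Conjunctival markers moved with Krt6b. The 5 of 6 found summed to 1498 CPM with Krt6b against 211 CPM without in library 1, and to 3373 against 685 CPM in library 2, with Muc5ac at 0 in all 4 sums. Of the 8 other keratins tested 6 were higher, Krt13 by 3.69, Krt80 by 2.96 and Krt19 by 2.64. The same was seen above 0.8 on its own, where the markers summed to 688 against 47.0 CPM and 750 against 62.8 CPM while the corneal markers stood at 28593 against 28456 CPM and 51190 against 39584 CPM. Over the matched classes Krt12 was higher by 0.76 (adjusted p = 2.36e-23) and Krt15 by 1.29, with 0.51 for Krt5 and 0.23 for Krt14 (adjusted p = 0.705). Before matching, Krt14 went opposite ways in the libraries. It stood at 11248 CPM with Krt6b against 6659 CPM without in library 1, and at 4292 against 4861 CPM in library 2. The part of the conjunctival markers in the list of called genes was not tested.

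Cells with Krt6a (978 and 866, with as many matched cells without it) rested on more cells than those of the other members. Of 11171 genes, 13.4% passed, 884 higher (7.91%) and 609 lower (5.45%), beside 3 of 3 other members higher. Krt6b stood at 328 against 6.92 CPM and 550 against 6.78 CPM (5.98, SE 0.14, adjusted p = 1.9e-26), Krt16 at 535 against 16.97 CPM and 241 against 6.78 CPM (5.04, SE 0.12, adjusted p = 1.33e-34), and Krt17 at 1337 against 362 CPM and 1042 against 448 CPM (1.55, SE 0.18, adjusted p = 0.00618). All 3 other members were thus higher where Krt6a was found, in both libraries. Krt5 (0.37, adjusted p = 0.000581) and Krt15 (0.70) were higher too. Krt14 gave 0.64 (adjusted p = 0.0711) and Krt12 0.32 (adjusted p = 0.3). Without the library term only 12 genes were called, and neither Krt16 (adjusted p = 0.211) nor Krt17 (adjusted p = 0.0696) was among them.

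Psca had 66 against 1 UMIs in library 1 (ratio 66.1, 11.5 to 2651) and 1499 against 4 in library 2 (ratio 376, 146 to 1381). Muc4 had 162 against 1 UMIs (ratio 162, 28.7 to 6450) and 681 against 16 (ratio 42.7, 26.1 to 75.1). The arginase gene Arg1 rose by 4.94 (SE 0.25), the protease inhibitor gene Spink5 by 4.77 (SE 0.20) and Hopx, a marker of differentiating keratinocytes, by 3.97 (SE 0.17). The Kit ligand gene Kitl (-1.21), Jag2 (-1.17) and Antxr1 (-1.10) led the genes that were lower. Of 12 surface differentiation genes 9 were higher and 0 lower (median 1.40 beside 7.3e-05 for all genes), with Sbsn at 1.85 and Lypd3 at 1.40. Of 27 activation and wound genes 16 were higher and 3 lower (median 0.97), with S100a9 (1.25) and Hbegf (0.94) among those named by the rule and Lcn2 at -0.40. Of 15 desmosome genes 9 were higher, Dsc2 (1.16), Evpl (0.97) and Dsg3 (0.94) among them, and Dst was lower (-0.41).

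Of 15 NRF2 targets 5 were higher with Krt6a, Gsta4 (1.30) and Pgd (0.74) among them, and Gclm was lower (-0.72). Of 21 regulators Klf5 (0.40), Stat3 (0.40) and Hif1a (0.30) were among the 4 higher, and Keap1 (-0.31) was lower. Of 12 AP-1 genes 1 was higher, and Fos was lower (-0.32). Of 9 other keratins 7 were higher, Krt13 by 3.22, Krt19 by 2.76 and Krt4 by 2.00. Conjunctival markers summed to 565 against 138 CPM and 1273 against 352 CPM, with 5 of 6 found in each sum and Muc5ac at 0, and their part in the result was not tested. The call counts moved with the cells used: without the 3% of cells with the highest doublet scores in each library 345 genes were higher and 166 lower.

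Cells with Krt16 (354 and 130, with as many matched cells without it) differed in fewer genes. Of 9373, 5.32% passed, 313 higher (3.34%) and 186 lower (1.98%), beside 2 of 3 other members higher. Krt6a stood at 5125 against 1216 CPM and 3425 against 745 CPM (2.14, SE 0.07, adjusted p = 1.05e-57), and Krt17 at 2593 against 678 CPM and 1700.5 against 502 CPM (1.85, SE 0.08, adjusted p = 1.75e-43). Krt14, the basal type I keratin, stood at 13549 against 7172 CPM and 8483 against 4305 CPM (0.95, SE 0.05, adjusted p = 1.34e-35). Cells with Krt16 thus held more RNA of Krt17 and Krt14, both type I keratins, in both libraries. Krt16 shares 6 of the 451 windows of its last 500 bases with these genes, and the part of reads given to the wrong gene was not tested. Krt6b gave 2.55 (adjusted p = 0.511), with 3.30 and 1.67 in the libraries, and passed among cells above 0.8 alone (1.90, adjusted p = 0.0174). Krt5 (0.28) and Krt15 (0.34) rose less, and Krt12 gave 0.09 (adjusted p = 0.353). Without the library term edgeR called 14 genes, Krt17 (adjusted p = 0.0402) among them and Krt6a (adjusted p = 0.0606) not.

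With Krt16, the cornified envelope gene Sprr1a rose by 3.90 (SE 0.24), Ly6d, a surface antigen of keratinocytes, by 3.79 (SE 0.24), Spink5 by 2.83 (SE 0.19), the crosslinking enzyme Tgm1 by 2.77 (SE 0.36) and the actin regulator Shroom3 by 2.53 (SE 0.26). Spon2 (-1.60), Kitl (-1.49) and Gas1 (-1.45), a limbal marker, were lower. The other limbal markers went both ways. Gpha2 (-0.46) was lower, Ifitm3 (0.59) and Krt15 (0.34) were higher, and Cd63 (0.19) did not pass. Of 12 surface differentiation genes 7 were higher and 0 lower (median 0.97 beside 0.0054 for all genes), and of 24 activation and wound genes 7 and 0 (median 0.71), with Areg at 2.34 and Hbegf at 0.93. Of 14 desmosome genes 8 were higher, Dsg3 (1.06), Pkp1 (1.02) and Dsc2 (0.78) among them, and Dst was lower (-0.52). Of 14 NRF2 targets Akr1b8 (1.19), Gsta4 (0.73) and Pgd (0.55) were higher and Gclm lower (-0.49). Of 21 regulators Klf5 (0.55) and Cebpb (0.44) were higher and the glucocorticoid receptor gene Nr3c1 lower (-0.57). Of 12 AP-1 genes 0 were higher and Fos was lower (-0.35). Krt13 alone of 8 other keratins was higher (1.55). Conjunctival markers summed to 723 against 395 CPM and 1185 against 690 CPM, with 5 of 6 found and Muc5ac at 0. Above 0.8 they summed to 219 against 212 CPM in library 1 and 123 against 223 CPM in library 2, where Krt6a gave 2.31 and Krt17 2.47 with Krt16.

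Cells with Krt17 (625 and 410, with as many matched cells without it) gave a shorter list in this fit. Of 10570, 2.88% passed, 160 higher (1.51%) and 144 lower (1.36%), and 0 of the 3 other members were among them. Krt16 gave 2.38 (adjusted p = 0.147; 2.75 and 1.82 in the libraries) and Krt6a 1.01 (adjusted p = 0.323; 1.31 and 0.70). Both passed in most alternatives run, among them each end class on its own. Krt6b gave 0.16 (adjusted p = 0.978), with opposite signs in the libraries, 1.36 and -1.19. Under 0.4 alone Krt6b was lower with Krt17 (-1.06, adjusted p = 6.44e-14). Krt14 stood at 11224 against 6321 CPM and 7342 against 4691 CPM (0.74, SE 0.05, adjusted p = 1.81e-09), and Krt12 at 9247 against 12136 CPM and 7498 against 9531 CPM (-0.37, SE 0.04, adjusted p = 1.72e-05) although cells were matched for class. Krt5 (0.07) and Krt15 (0.06) did not pass. Krt17 shares 43 of the 451 windows of its last 500 bases with Krt14 or Krt16, and the part of misassigned reads was not tested.

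Asprv1, Muc4 and Krt13, which were higher with Krt6b, were lower with Krt17. Asprv1 fell by 2.40 (SE 0.13), Muc4 by 1.72 (SE 0.17), Slurp1, a secreted corneal protein and corneal marker, by 1.23 (SE 0.08) and Krt13 by 0.45 (SE 0.09). Under 0.4 alone Slurp1 gave 0.090, the other sign. Ly6d rose by 2.74 (SE 0.24), the kallikrein Klk10 by 1.41 (SE 0.20), Areg by 1.29 (SE 0.17) and Sbsn by 1.28 (SE 0.16). Of 12 surface differentiation genes 5 were higher and 2 lower, Muc4 and Dsg1a (-0.90), with a median of 0.40 beside 0.0024 for all genes. Of 26 activation and wound genes 7 were higher and 0 lower (median 0.49), Sprr1a (1.76) among them. Of 15 desmosome genes Pkp1 (0.52), Dsg3 (0.48) and Dsc2 (0.38) were higher and 0 lower. Akr1b8 (1.09) and Gpx2 (0.84) were the 2 of 15 NRF2 targets that rose, and Cebpd (0.59) the 1 of 21 regulators. Of 12 AP-1 genes Fos was lower (-0.42). Of 9 other keratins Krt18 was higher (0.73) and Krt13 lower. Conjunctival markers summed to 377 against 394 CPM and 1016 against 1110 CPM, with 5 of 6 found and Muc5ac at 0. Without the library term 0 genes were called by edgeR, 284 had an unadjusted p under 0.05, and DESeq2 with the library term called 12 higher and 11 lower.

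**Figure D4:**
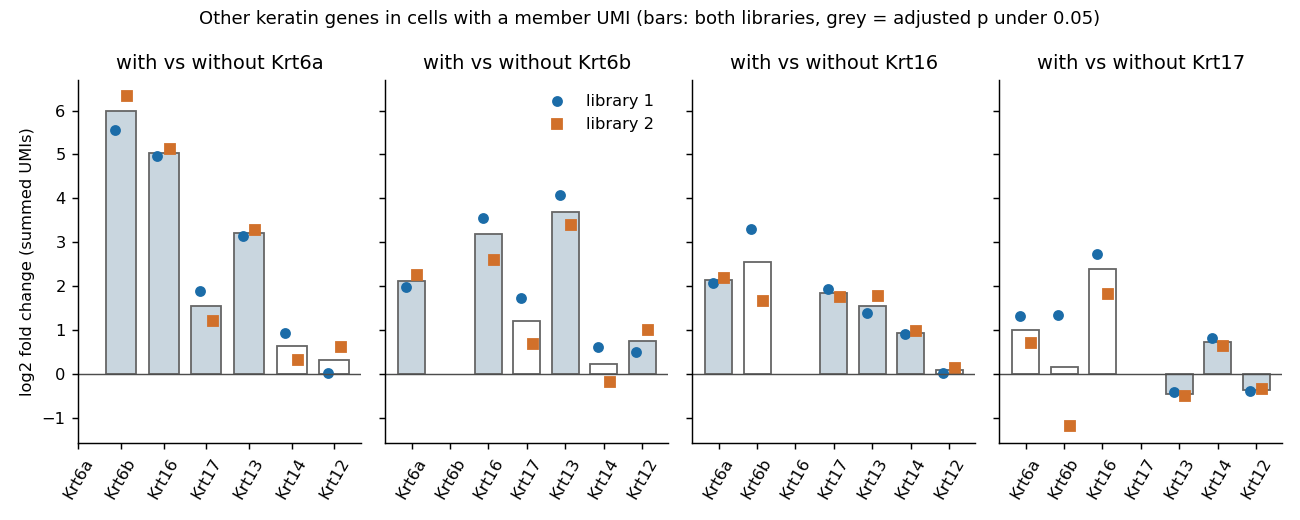
Log2 fold change of summed UMIs between matched cells with and without each gene, for the other 3 members and Krt13, Krt14 and Krt12. Bars give the value over both libraries (grey where the adjusted p is under 0.05, white where not), circles library 1 and squares library 2. Krt16 bars for Krt6a and Krt17 pass at 2.14 and 1.85, and Krt6b has opposite signs in the libraries in the Krt17 panel (1.36 and -1.19).

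The sort collected cells with a cyclin B1 reporter, and the members were compared across the RNA of 12 proliferation genes, among them Mki67, Top2a and Ccnb1, at equal depth. Nearly all cells had at least 3 such UMIs, 2745 in library 1 and 2531 in library 2. Of these, 7.98% had Krt6b in library 1 (6.99 to 9.06%) and 7.15% in library 2 (6.18 to 8.23%). In the 107 and 111 cells with 1 to 2 such UMIs it was found in 27.1% (19.0 to 36.6%) and 30.6% (22.2 to 40.1%), and of the 32 and 46 cells with none in 8 (11.5 to 43.4%) and 15 (19.5 to 48.0%). Krt6b was thus several times more often found in cells low in proliferation RNA, in both libraries and with intervals that do not meet.

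Krt6a showed a smaller step in the same direction, from 49.4% (47.5 to 51.3%) and 35.1% (33.2 to 37.0%) with at least 3 UMIs to 67.3% (57.5 to 76.0%) and 50.5% (40.8 to 60.1%) with 1 to 2. In the cells with none Krt6a was found in 59.4% (40.6 to 76.3%) and 47.8% (32.9 to 63.1%), intervals that overlap those at 3 or more. Krt16 was found in 11.8% against 25.2% in library 1 but in 4.78% against 7.21% in library 2, where the intervals overlap. In the cells with none it was found in 15.6% (5.28 to 32.8%) and 4.35% (0.531 to 14.8%), which overlap those at 3 or more in both libraries. For Krt17 the intervals overlapped in both libraries (35.2% against 44.9% in library 1 and 33.9% against 39.6% in library 2). The cells with 1 to 2 proliferation UMIs had a lower depth before thinning, with a median of 5098 and 4609 UMIs against 5912 and 6235, and their share above 0.8 was 73.8% and 50.5% against 71.4% and 61.7%. The part of depth in this pattern was not tested beyond the thinning.

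**Figure D5:**
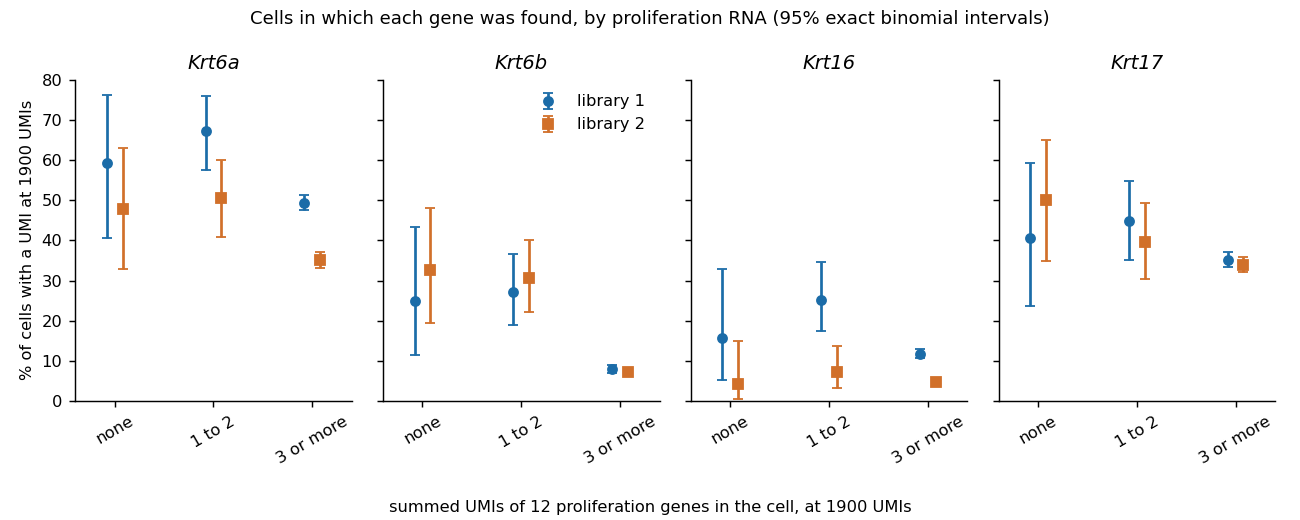
Percent of cells with at least 1 UMI of each gene at 1900 UMIs per cell, by the summed UMIs of 12 proliferation genes in the same cell, with 95% exact binomial intervals. Krt6b drops from 27.1% and 30.6% at 1 to 2 UMIs to 7.98% and 7.15% at 3 or more, and the Krt17 intervals at 1 to 2 and at 3 or more UMIs overlap.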

How the data were processed

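Single-cell RNA-seq was done with 10x Genomics 3' v3 chemistry on sorted cells. The authors deposited UMI counts as whole numbers in 1 joint matrix, written by Cell Ranger 3.1.0 per the file headers; GRCm38 (mm10) and Seurat 5.0.0 are named in the submitters' processing notes, and how depth was treated when the libraries were joined is not given in the sources used here. The 6752 barcodes (19001107 and 18030874 UMIs by library, 5 sequences in both) were filtered to at least 500 genes (475 had fewer) and under 20% mitochondrial UMIs (311 had more). Scrublet in scanpy 1.11.5, at an expected 3%, called 5 cells (0.0808%), too few to have worked, so doublets remain. Shares and co-detection used cells thinned to 1900 UMIs, leaving out 303 and 313 shallower cells; PCR copies are removed by UMIs, and intervals (95%) cover counting error only.

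Sums were tested with edgeR 4.0.16 (robust quasi-likelihood, TMM, filterByExpr; R 4.3.3), and DESeq2 1.42.0 was an alternative. Standard errors are the log2 fold change over the root of F. Adjusted p-values are Benjamini-Hochberg over all genes tested, at 0.05. Nothing says whether the replicates are separate animals, so the p-values cannot be read as a spread between animals. With library as a block, they rest on how far a change differed between these 2 libraries, with a spread borrowed across genes. Krt12 and Krt15 set the classes and are left out of the counts of the class comparison. In the counts of a split only the gene that set it is left out. In simulated data, 96% of 200 genes changed by 1 on the log2 scale were recovered in the class comparison (10945 genes, 6 false calls). In the Krt16 comparison 95.5% were recovered (9167 genes, 10 false). The changed genes were drawn only from those with higher counts. Every gene was given the same fixed spread, and no difference between the libraries was simulated. These settings favour recovery, and whether the simulated spread resembled that between the libraries was not tested. Genes were named by rule: the 4 members, Krt5, Krt14, Krt12 and Krt15, per member the 5 higher and 3 lower with the largest smaller change of the 2 libraries, and up to 3 per list and direction, all at 20 CPM or more, past the threshold and with 1 sign in both libraries. Members, lists, rules and the marker genes were chosen with earlier results of these data known. Il36g of the wound list was not matched. Of 31053 gene IDs, 30934 are in GENCODE M21, the source of the sequences. A gene selected by the naming rule is not reported here.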

Additional observations from a re-analysis of the deposited data

How the results depend on the processing

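Counts of genes called moved with the count model and with the library term, and the cause was not tested. With DESeq2 the genes higher and lower were 792 and 983 for the Krt12 share, 38 and 5 for Krt16, 12 and 11 for Krt17, 219 and 44 for Krt6a and 311 and 77 for Krt6b. With no replicate block (the library, which is the pairing here) they were 687 and 864, then 14 and 0 for Krt16, 0 and 0 for Krt17, 12 and 0 for Krt6a and 64 and 2 for Krt6b. In the same fits with no replicate block these members lost their call: with Krt16, Krt6a (2.12); with Krt6a, Krt16 (5.03) and Krt17 (1.55); with Krt6b, Krt16 (3.35) and Krt6a (2.10). Thinned cells gave 1093 and 1171 for the Krt12 share.

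Other cells changed the counts too. Without the 3% of cells with the highest doublet scores they were 345 and 166 for Krt6a and 290 and 232 for Krt17. Matched on UMIs only they were 162 and 69 for Krt16, 577 and 314 for Krt6a and 971 and 796 for Krt17. Unmatched, Krt17 gave 785 and 578 and Krt16 91 lower, and without a low-count filter Krt17 gave 274 higher. In the class above 0.8 alone, chosen after seeing the data as was the class under 0.4, they were 139 and 83 for Krt16, 377 and 190 for Krt6a and 667 and 337 for Krt6b, and under 0.4 alone 71 and 94 for Krt17 and 587 and 325 for Krt6b. Krt16 under 0.4 was not run, for fewer than 50 cells in library 2.

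Between the ends of the Krt12 share, Krt16 passed with thinned cells (0.58) and without a filter (0.48), Krt17 with DESeq2 (-3.46), and Krt6b with at least 20 Krt12 and Krt15 UMIs (-0.58), with no TMM factors (-0.38), without a filter (-0.34) and without the highest doublet scores (-0.35). Krt6b with Krt16 passed above 0.8 (1.90), and Krt16 with Krt6b did not (3.44). Krt16 with Krt17 passed above 0.8 (2.88), under 0.4 (1.37), with DESeq2 (2.30), unmatched (2.25), at 2 thinned UMIs (3.51), matched on UMIs only (2.10), without a filter (2.39) and without the highest doublet scores (2.85). Krt6a with Krt17 passed above 0.8 (1.29), under 0.4 (0.47), unmatched (1.18), matched on UMIs only (1.12), without a filter (1.02) and without the highest doublet scores (1.11). Krt17 with Krt6b passed above 0.8 (1.44), under 0.4 (0.81), unmatched (1.48), at 2 thinned UMIs (1.09) and without the highest doublet scores (0.96). Under 0.4, Krt6b (-1.06) and Slurp1 (0.090) changed sign with Krt17. The cause of these moves was not tested.

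With either library left out, which leaves no test, the change between the ends of the Krt12 share ranged over -0.84 to 0.42 for Krt6a, -0.46 to -0.21 for Krt6b, -4.31 to -2.67 for Krt17. With Krt16 present it was 1.74 to 1.94 for Krt17 and 1.64 to 3.31 for Krt6b, with Krt17 present 1.82 to 2.75 for Krt16, 0.69 to 1.31 for Krt6a and -1.20 to 1.36 for Krt6b, with Krt6a present 1.21 to 1.88 for Krt17 and 5.56 to 6.33 for Krt6b, and with Krt6b present 2.61 to 3.57 for Krt16, 0.68 to 1.74 for Krt17 and 2.00 to 2.26 for Krt6a.

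Depth limits the shares. In cells thinned to 3900 UMIs they were 61.4 and 45% for Krt6a, 13.8 and 11.8% for Krt6b, 18.3 and 7.26% for Krt16, 44.1 and 41.2% for Krt17, and without thinning 62.4 and 47.7% for Krt6a, 15.4 and 13.6% for Krt6b, 19.1 and 8.16% for Krt16, 45.8 and 44.1% for Krt17. Co-detection ratios fell with depth. Thinned to 3900 UMIs, they were 1.56 and 1.93 for Krt6a and Krt6b, and in library 1 2.84 for Krt6b and Krt16, 1.54 for Krt16 and Krt17, 1.49 for Krt6a and Krt16 and 1.42 for Krt6b and Krt17. Without thinning they were 1.51 and 1.82 for Krt6a and Krt6b, 1.45 and 1.82 for Krt6a and Krt16, and in library 1 2.81 for Krt6b and Krt16, 1.58 for Krt16 and Krt17 and 1.21 for Krt6a and Krt17. Pooled over classes, Krt6a and Krt17 gave 1.46 in library 2.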
